A study of Mus musculus with 32 samples.

Results

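The 36 genes described here make the fibrous matrix of connective tissue or mark the fibroblasts that lay it down. They were chosen as a list of collagen, small proteoglycan, matrix glycoprotein and fibroblast genes, and reads were summed over the Ensembl transcripts of each. All 36 were found, among 35458 genes in the transcript tables, and 34 had enough reads to be tested among 15698 genes. The list was drawn up to ask which pools of hand-picked parathyroid cells carry connective tissue RNA, and which matrix genes are present evenly across pools.

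Bulk RNA-seq was run on 32 pools of parathyroid gland (PTG) cells, each of 10 to 20 hand-picked cells with red tdTomato fluorescence, copied with a full-length SMART-Seq HT kit, with 4 libraries in each of 8 groups. The rat-host group holds the progeny of Pth-tdTomato mouse embryonic stem cells (ESC) used to complement a Gcm2-/- Wistar rat, taken at the neonatal stage with the sex unknown. The graft group holds grafted ESC-derived cells from Gcm2-/- mice on a BDF1B6 background, labelled male and 12 weeks old. The mouse-host groups are 4 experiments of ungrafted cells derived from the same kind of ESC in Gcm2-/- hosts of that background, all 9 weeks old, of which experiments 1 to 3 are labelled female and experiment 4 male. The control groups are 2 experiments of native cells from C57BL/6-Pthtm1(P2A-tdTomato)/+ mice, labelled male at 8 weeks in experiment 1 and female at 11 weeks in experiment 2. All groups share the tdTomato reporter at Pth, and all but the control groups hold cells derived in Gcm2-/- hosts, which lack the transcription factor that gland formation requires. The picked cells themselves held Gcm2 reads in all 32 libraries. The labels do not say whether the replicates of a group came from separate animals, or whether a sex label is that of the host or of the donor cells. The arms are rat host, graft, mouse host and control. In fits on counts summed per experiment, a p-value between arms covers the spread between the sums of the mouse-host and control arms. In fits on single libraries it covers the spread among libraries. Within an arm, a p-value covers the spread among single libraries, part of which may be technical.

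The extracellular matrix has 2 layers that are made by different cells in most organs. Fibroblasts secrete the fibrillar collagens, which small leucine-rich proteoglycans such as decorin space and bind, and which microfibrils and elastin accompany. Epithelial and endocrine cells sit on a basement membrane, a thin sheet built on a network of type IV collagen and laminin. In the parathyroid gland, as in other endocrine glands, cords of hormone-making cells are separated by capillaries and a sparse stroma of fibroblasts. In pools of cells, fewer cells of a type and less RNA per cell cannot be told apart.

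The results turn on 2 pairs of collagen genes and on the start sites of 1 further gene, whose promoter windows are shown first. The windows run from 250 bases before to 50 bases after the start, come from RefSeq on GRCm38.p6, are printed 5′ to 3′ on the strand of the gene, and were given for 21 of the 36 genes. Col4a1 (chr8:11312777-11313076, minus strand) and Col4a2 (chr8:11312555-11312854, plus strand), the type IV collagen chains found in every pool, are transcribed from opposite strands, from start sites 21 bases apart. Each is read across the start site of the other, so their first bases overlap, and their gene bodies lie on opposite sides. Their windows share 78 bases, which stand in capitals and are the reverse complement of each other.
Col4a1: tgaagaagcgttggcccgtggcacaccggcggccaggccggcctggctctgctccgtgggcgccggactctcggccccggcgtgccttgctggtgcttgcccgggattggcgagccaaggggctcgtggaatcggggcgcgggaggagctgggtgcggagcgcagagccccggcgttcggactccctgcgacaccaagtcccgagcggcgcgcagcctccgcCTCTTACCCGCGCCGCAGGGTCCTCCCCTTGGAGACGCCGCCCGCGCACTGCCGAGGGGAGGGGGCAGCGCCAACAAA
Col4a2: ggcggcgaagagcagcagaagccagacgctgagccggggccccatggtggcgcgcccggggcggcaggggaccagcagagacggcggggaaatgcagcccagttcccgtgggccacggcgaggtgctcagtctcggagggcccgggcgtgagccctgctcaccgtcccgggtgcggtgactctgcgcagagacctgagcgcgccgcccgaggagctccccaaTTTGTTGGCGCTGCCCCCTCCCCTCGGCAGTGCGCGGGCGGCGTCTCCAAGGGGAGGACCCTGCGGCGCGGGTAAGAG
Col1a2 (chr6:4505368-4505667, plus strand), a chain of type I collagen, and Col3a1 (chr1:45311288-45311587, plus strand), the chain of type III collagen, were nearly confined to a few pools. Capitals mark matches, on either strand, to CCAAT, to the TATA box letters TATAAA or to the GC box letters GGGCGG, and no match overlapped another.
Col1a2: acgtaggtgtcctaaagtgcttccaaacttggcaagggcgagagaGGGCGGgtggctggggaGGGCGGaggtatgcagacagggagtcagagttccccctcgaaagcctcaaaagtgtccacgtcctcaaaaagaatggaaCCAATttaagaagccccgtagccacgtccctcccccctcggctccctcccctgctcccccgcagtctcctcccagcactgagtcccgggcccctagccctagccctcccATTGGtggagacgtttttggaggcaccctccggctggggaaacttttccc
Col3a1: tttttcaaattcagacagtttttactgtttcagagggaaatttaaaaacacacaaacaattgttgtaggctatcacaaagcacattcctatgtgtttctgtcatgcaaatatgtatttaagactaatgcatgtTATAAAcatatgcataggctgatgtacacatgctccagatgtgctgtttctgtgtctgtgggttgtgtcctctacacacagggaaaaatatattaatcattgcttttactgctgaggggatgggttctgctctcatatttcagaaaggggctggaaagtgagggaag
Of 32817 RefSeq windows, 37.4% hold CCAAT, 13.6% hold TATAAA and 35.6% hold GGGCGG, so these matches are common and are a description only. Among the 21 genes of the list with a window, 7 had CCAAT, 3 had TATAAA and 10 had GGGCGG. Gsn, which encodes the actin-severing protein gelsolin, is read from several starts. Windows near those of transcripts Gsn-205 (chr2:35256109-35256408, plus strand) and Gsn-201 (chr2:35282130-35282429, plus strand) are given because the pools differed in which of the transcripts they held. The first has its RefSeq start at base 35256359, while Gsn-205 starts at base 35256380, with Gsn-203, Gsn-204, Gsn-206 and Gsn-207 starting close by. Another Gsn window (chr2:35266494-35266793, plus strand) is not shown. Capitals again mark the 3 motifs.
Gsn-205: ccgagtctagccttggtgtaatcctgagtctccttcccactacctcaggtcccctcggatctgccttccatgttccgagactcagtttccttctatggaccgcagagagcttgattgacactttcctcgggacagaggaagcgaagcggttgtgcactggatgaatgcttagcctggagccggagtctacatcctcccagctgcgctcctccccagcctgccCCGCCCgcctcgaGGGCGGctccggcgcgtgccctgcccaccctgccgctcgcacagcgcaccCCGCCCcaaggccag
Gsn-201: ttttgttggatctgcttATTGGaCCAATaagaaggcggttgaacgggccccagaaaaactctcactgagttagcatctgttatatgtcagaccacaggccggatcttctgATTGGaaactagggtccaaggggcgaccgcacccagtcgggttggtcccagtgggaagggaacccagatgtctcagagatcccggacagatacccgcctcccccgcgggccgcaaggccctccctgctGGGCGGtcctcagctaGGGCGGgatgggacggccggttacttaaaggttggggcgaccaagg

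Library totals were 29471254 to 32264864 reads in control experiment 1 and lay between 9470744 and 15098391 in all other groups. Levels are given as CPM, read counts relative to library size after scaling by the trimmed mean of M values (TMM), for comparisons of a gene between libraries, and as TPM, which are also relative to transcript length, for comparisons between genes. The label of the cells was checked on Pth, Gcm2, Chga, Casr, Gata3 and Kl, and each of these 6 parathyroid markers was above 1 CPM in all 32 libraries. A pair of libraries stood apart from the rest in the genes of the list: replicate 4 of mouse-host experiment 2 and replicate 3 of control experiment 2. The 36 genes took 0.775% of reads in the mouse-host library and 0.665% in the control library, and 0.0148% to 0.0997% in each of the other 30. Results that rest on these libraries are given with and without them.

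**Figure D1:**
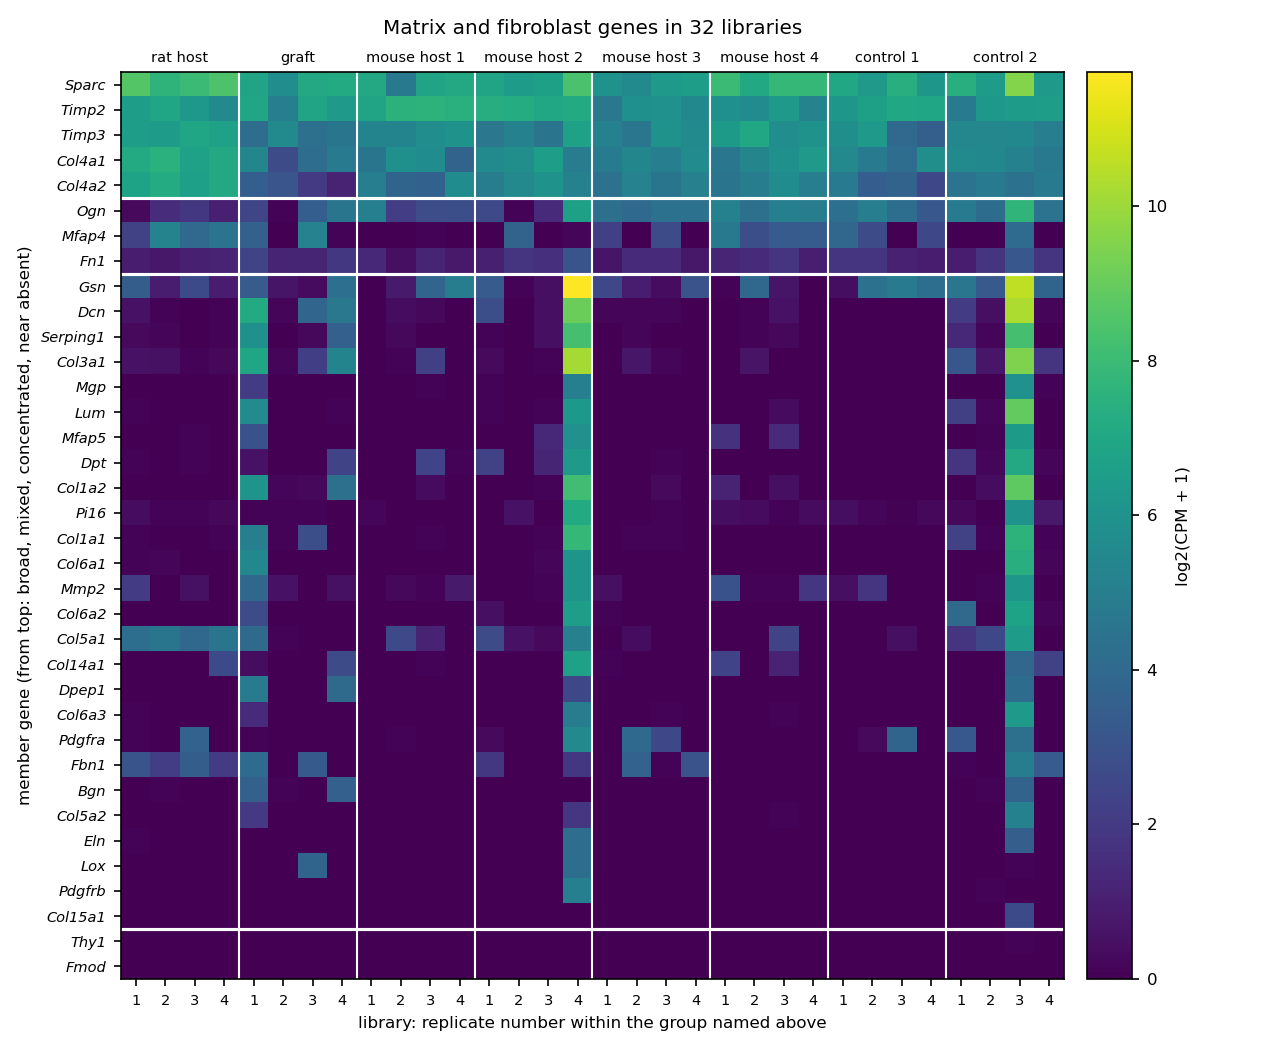
Level of each of the 36 genes (rows) in each of the 32 libraries (columns) as log2(CPM + 1), with groups separated by white lines and genes ordered by class and then by mean TPM. The 5 genes at the top are coloured in every column, while most of the 26 concentrated genes are bright in replicate 4 of mouse host 2 and replicate 3 of control 2, and less so in replicate 1 of the graft.

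The 36 genes fell into 4 classes by how their CPM was spread over the libraries. A gene was called broad if it had at least 1 CPM in all 32 libraries and its highest library was at most 10 times the median library. It was called concentrated if it was not broad and its 3 highest libraries held over 50% of the CPM summed over all libraries, near absent with under 32 reads in all, and mixed otherwise. By these rules 26 genes were concentrated, 5 were broad (Col4a1, Col4a2, Sparc, Timp2 and Timp3), 3 were mixed (Ogn, Fn1 and Mfap4) and 2 were near absent. Over all 15698 tested genes, 20.2% were concentrated, 40.1% broad and 36.6% mixed. The near-absent genes were Fmod, which encodes the proteoglycan fibromodulin and had 0 reads in the 32 libraries, and Thy1, which encodes a surface glycoprotein of fibroblasts and T cells and had 1 read. By role, concentrated genes were all 5 fibrillar collagens, 5 of 7 network, beaded and associated collagens, 4 of 6 proteoglycans and partners, 5 of 8 glycoproteins and elastic fibre genes, 4 of 5 surface genes and 3 of 5 proteases, inhibitors and gelsolin.

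The concentrated genes were, by the rule of their class, carried by few pools. Their summed level was 6811 CPM in replicate 4 of mouse-host experiment 2 and 5965 CPM in replicate 3 of control experiment 2. Next came the graft, with 626 CPM in replicate 1, 148 CPM in replicate 4, 45.5 CPM in replicate 3 and 1.81 CPM in replicate 2. The 4 rat-host libraries held 27.5 to 41.8 CPM, the other 15 mouse-host libraries 0.108 to 30.2 CPM and the other 7 control libraries 1.06 to 73.1 CPM. In each of the 2 high libraries 24 of the 26 concentrated genes reached 1 CPM, against 18 in graft replicate 1, 9 in graft replicate 4, 10 in control experiment 2 replicate 1 and at most 5 in any other library. For 21 of the 36 genes these 2 libraries were the highest and the next highest of the 32, which was true of 1.69% of all tested genes. They held over 50% of the summed CPM of 24 members, against 2.82% of all tested genes, and over 90% of that of 16 members. These libraries were singled out by their reads of the same 36 genes. The excess over all tested genes is therefore fixed in part in advance and is a description only.

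**Figure D2:**
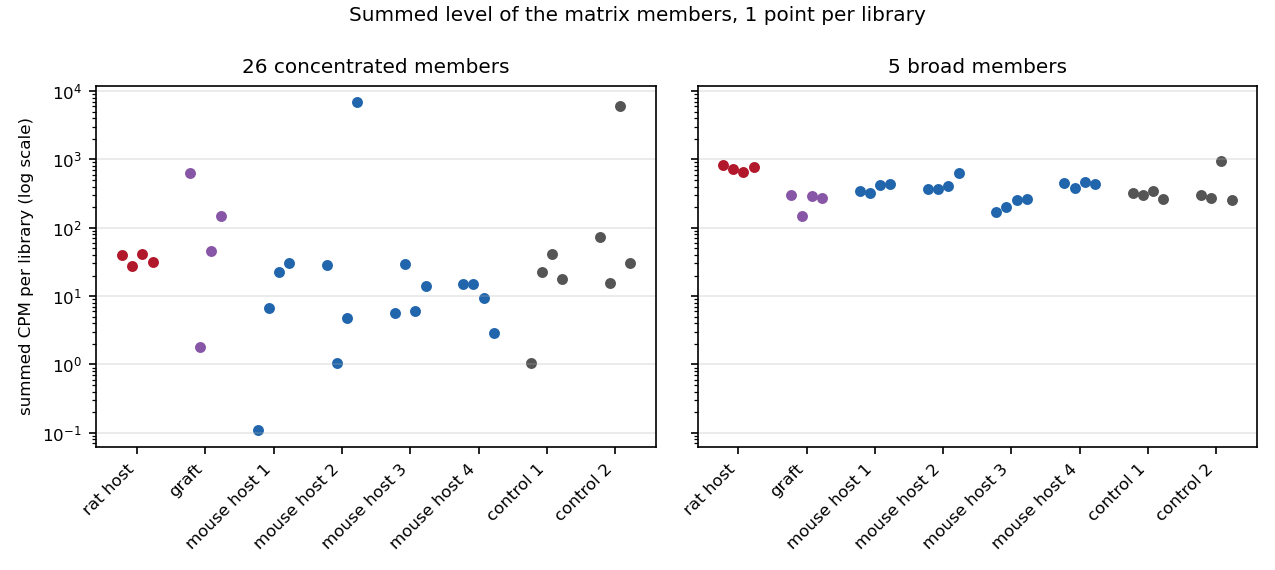
Summed CPM of the 26 concentrated genes (left) and of the 5 broad genes (right) per library on a log scale, 1 point per library and 8 groups along the axis. The concentrated sum runs from 0.108 to 6811 CPM with 1 point far above its group in mouse host 2 and in control 2, whereas the broad sum stays between 148 and 948 CPM. The class rules fix part of this contrast in advance.

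Among the fibrillar collagens, Col3a1 had the highest mean TPM. It stood at 1140 CPM in the high mouse-host library and 713 CPM in the high control library. The graft libraries held 122, 0.145, 3.50 and 37.6 CPM of Col3a1 in replicate order, the rat-host libraries 0.0734 to 0.510 CPM, the other mouse-host libraries at most 3.61 CPM and the other control libraries at most 7.72 CPM. Col1a2, whose product joins that of Col1a1 in the type I collagen triple helix, had 282 CPM in the high mouse-host library and 456 CPM in the high control library. Graft replicates 1 and 4 held 67.0 and 18.9 CPM of Col1a2, the rat-host libraries 0 reads, the other mouse-host libraries at most 1.28 CPM and the other control libraries at most 0.307 CPM. Col1a1 had 222 CPM in the high mouse-host library, 192 CPM in the high control library and 31.2 CPM in graft replicate 1. Of the type V chains, which help to start fibrils, Col5a2 reached 1 CPM in 3 libraries only, at 34.1 CPM in the high control library, 2.87 CPM in graft replicate 1 and 2.58 CPM in the high mouse-host library. Col5a1 differed from the other fibrillar collagens in that every rat-host library held it, at 18.01, 22.3, 14.2 and 21.6 CPM. Graft replicate 1 had 15.6 CPM of Col5a1, the high mouse-host library 33.6 CPM, the high control library 89.4 CPM, and no other library more than 5.63 CPM.

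The beaded type VI collagens, which link fibrils to basement membranes, were as concentrated. Col6a1 had 66.3 CPM in the high mouse-host library, 167 CPM in the high control library and 43.5 CPM in graft replicate 1, and at most 0.168 CPM in the remaining libraries. Col6a2 had 94.4 and 111 CPM in the high mouse-host and control libraries, 15.5 CPM in control experiment 2 replicate 1 and 5.49 CPM in graft replicate 1. Col6a3 had 30.6 and 79.6 CPM in the 2 high libraries and at most 1.75 CPM elsewhere. Col14a1, a collagen that sits on the surface of fibrils, had 104 CPM in the high mouse-host library and 13.7 CPM in the high control library. Col15a1, a collagen of the zone under basement membranes, had 65 reads in the high control library and 0 in all others.

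Of the proteoglycans and their partners, Dcn (decorin, which binds and spaces collagen fibrils) had 549 CPM in the high mouse-host library and 1251 CPM in the high control library. Graft replicates 1, 3 and 4 held 141, 13.4 and 25.2 CPM of Dcn, and no other library held more than 6.11 CPM. Lum (lumican, a related fibril-binding proteoglycan) had 74.2 CPM in the high mouse-host library and 478 CPM in the high control library, with 48.96 CPM in graft replicate 1 and at most 3.72 CPM elsewhere. Dpt (dermatopontin, a decorin-binding protein) had 79.8 and 132 CPM in the high mouse-host and control libraries. Bgn (biglycan) went against this pattern, with 0 reads in the high mouse-host library, 12.3 CPM in the high control library and 11.0 and 11.2 CPM in graft replicates 1 and 4.

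Of the 8 elastic fibre and glycoprotein genes 5 were concentrated. Mgp (matrix Gla protein, an inhibitor of calcification) had 32.5 CPM in the high mouse-host library and 59.9 CPM in the high control library, 3.10 CPM in graft replicate 1 and at most 0.0903 CPM elsewhere. Mfap5 (a glycoprotein of microfibrils) had 59.9 and 82.9 CPM in the high mouse-host and control libraries and at most 6.77 CPM elsewhere. Eln (elastin) had 17.2 and 10.8 CPM in the same libraries and 1 read in the other 30. Fbn1 (fibrillin-1, the backbone of microfibrils) was the least concentrated of the class, with 51.6% of its CPM in its 3 highest libraries, just past the limit of 50%. It had 3.10 to 9.83 CPM in the 4 rat-host libraries, 16.2 CPM in graft replicate 1, 12.0 CPM in mouse-host experiment 3 replicate 2 and 30.4 CPM in the high control library. The high mouse-host library held 2.78 CPM of Fbn1, below every rat-host library. On the other side of the limit, Ogn had 46.0% in its 3 highest libraries.

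Of the 5 fibroblast and mural surface genes 4 were concentrated, not all in the same pools. Pi16, a peptidase inhibitor gene that marks adventitial fibroblasts in mice, had 143 CPM in the high mouse-host library and 62.6 CPM in the high control library, against at most 0.755 CPM in the other 30. Pdgfra, the receptor gene that marks most fibroblasts, had 45.1 and 19.3 CPM in the high mouse-host and control libraries. Scattered pools also held Pdgfra, at 14.99 CPM in mouse-host experiment 3 replicate 2, 12.7 CPM in control experiment 1 replicate 3 and 11.8 CPM in rat-host replicate 3, and these 3 pools held at most 0.615 CPM of Col1a1, Col1a2 or Col3a1. Pdgfrb, the receptor gene of mural cells and some fibroblasts, had 320 reads in the high mouse-host library, 0 in the high control library and 1 in the other 30. Dpep1, a membrane dipeptidase gene, was the only concentrated gene highest in the graft, at 26.9 and 15.8 CPM in replicates 1 and 4, against 4.74 CPM in the high mouse-host library, 16.8 CPM in the high control library and 0 reads in all others.

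Gsn and Serping1 led the remaining class. Gsn had 3400 CPM in the high mouse-host library and 1564 CPM in the high control library, against 0 to 29.3 CPM in the other 30. Serping1, which encodes the complement C1 inhibitor, had 310 CPM in each of the 2 high libraries, 58.6 and 11.2 CPM in graft replicates 1 and 4 and at most 1.58 CPM elsewhere. Mmp2, a gelatinase gene, had 66.6 and 73.7 CPM in the high mouse-host and control libraries and 14.01 CPM in graft replicate 1.

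The share of the Gsn transcripts varied between pools. In the high mouse-host library Gsn-201 held 32862 reads and Gsn-205 held 88.0, so that Gsn-201 took 99.6% of the gene, and in the high control library it took 97.5%, with 18703 reads against 473. Over the other 30 libraries together Gsn-201 held 51.3% and Gsn-205 48.6% of 4077 reads, but single pools differed. Only Gsn-201 was found in graft replicate 4 (207 reads), mouse-host experiment 1 replicate 3 (146 reads), mouse-host experiment 2 replicate 1 (116 reads) and control experiment 2 replicate 1 (255 reads), as opposed to only Gsn-205 in graft replicate 1 (119 reads) and mouse-host experiment 3 replicate 4 (101 reads). In control experiment 1, replicates 2 to 4 held 323, 531 and 261 reads of Gsn-201 and 304, 338 and 245 of Gsn-205. Fn1, the fibronectin gene, was mixed in class at 0.394 to 7.99 CPM, but none of its reads in the other 30 libraries were assigned to a protein-coding transcript. There, 93.4% of its reads were assigned to Fn1-215, annotated as a retained intron. Transcripts that share exons share reads, so these assignments rest on the Salmon estimates.

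The 2 high libraries did not hold the same mix of matrix RNA. On the TPM scale Gsn ranked first of the 36 genes in the mouse-host library, at 1477 TPM, ahead of Dcn at 392 TPM, Sparc at 252 TPM, Serping1 at 227 TPM and Col3a1 at 215 TPM. In the control library Dcn ranked first at 739 TPM, ahead of Gsn at 572 TPM, Sparc at 430 TPM, Serping1 at 194 TPM and Lum at 191 TPM. Of 22 concentrated genes with more than 3 reads in both libraries, 8 had the higher CPM in the mouse-host library and 14 in the control library, with a median mouse-host to control ratio of 0.670. The mouse-host library had 7.59 times the CPM of Col14a1, 2.34 times that of Pdgfra and 2.29 times that of Pi16, and 171 reads against 1 of Lox, the lysyl oxidase gene that crosslinks collagen, which graft replicate 3 also held, at 12.7 CPM. The control library had 13.3 times the CPM of Col5a2, 10.9 times that of Fbn1, 6.44 times that of Lum and 3.54 times that of Dpep1. These are ratios of 2 libraries with no replicate, and describe those libraries and not their groups.

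**Figure D3:**
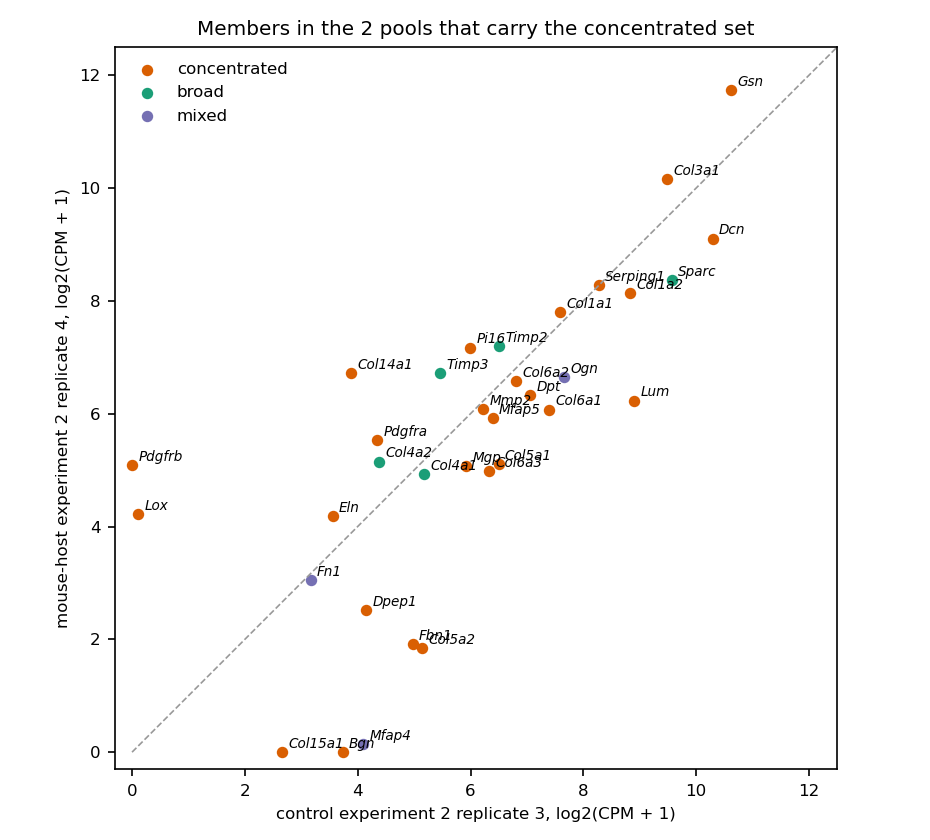
Level of each of the 34 genes tested in mouse-host experiment 2 replicate 4 (vertical axis) against control experiment 2 replicate 3 (horizontal axis), both as log2(CPM + 1), with points coloured by class and the dashed line at equal levels. Serping1 lies on the line at 310 CPM, Pdgfrb and Lox lie at the left edge with 0 and 1 control reads, and Bgn and Col15a1 lie at the bottom with 0 mouse-host reads.

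Of 10 fibroblast markers that are not members, some were high in the same pools and others were not. Fbln2 had 124 CPM in the high mouse-host library and 171 CPM in the high control library, Clec3b had 48.5 and 95.2 CPM and Tcf21 had 13.7 and 16.6 CPM, against at most 0.239, 2.47 and 0.478 CPM in the other 30. The marker list did not separate these pools as a whole, with a summed level of 1346 and 1664 CPM in the high mouse-host and control libraries and 277 to 1239 CPM in the others, and Cd34, Postn and Cygb were above 1 CPM in all 32 libraries. Twist2 had 5.57 and 1.63 CPM in the high mouse-host and control libraries and 0 reads elsewhere, but Twist1 had 0 reads in both, Fap had 0 and 0.326 CPM against up to 5.20 CPM elsewhere, and Ly6a had 155 and 245 CPM against up to 605 CPM. Chosen after their values were seen, Pcolce, which encodes an enhancer of procollagen processing, had 166 and 214 CPM in these libraries and at most 14.2 CPM elsewhere, and the collagen receptor gene Ddr2 had 28.3 and 18.2 CPM and 0 reads elsewhere. Mural markers were split, with Kcnj8 at 17.5 and 17.4 CPM and Abcc9 at 8.35 and 6.85 CPM, while Myh11, Cnn1 and Rgs5 had 0 reads in both libraries. The 8 endothelial markers summed to 0.309 and 4.16 CPM, and the 7 macrophage markers to 3.50 and 66.0 CPM, of which Lyz2 made 50.4 CPM in the control library. Graft replicate 1 held 29.5 CPM of macrophage markers, 15.7 CPM of Tagln and 9.31 CPM of Hba-a1. Of the chondrocyte markers Acan and Col2a1 had 0 reads in all 32 libraries, and of the adipocyte markers Adipoq and Fabp4 had 0. The parathyroid markers of the high libraries lay within the range of the others, with Pth at 75054 and 103783 CPM in the high mouse-host and control libraries, against 42174 to 136845 CPM elsewhere. The part of any other cell type in these results was not tested.

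As the rule of their class requires, the 5 broad genes were also present where the concentrated genes were nearly absent. In mouse-host experiment 1 replicate 1, where the 26 concentrated genes summed to 0.108 CPM, the broad genes summed to 339 CPM. Their sum was 650 to 823 CPM in the rat-host libraries, 148 to 306 CPM in the graft, 169 to 642 CPM in the mouse-host libraries and 258 to 948 CPM in the control libraries. Sparc, which encodes the collagen-binding glycoprotein osteonectin, had the highest mean TPM of all 36 genes.

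Col4a1, the chain that makes the basement membrane network with Col4a2, had 144, 176, 103 and 135 CPM in the rat-host libraries in replicate order. The graft libraries held 40.5, 5.72, 17.3 and 26.6 CPM. Mouse-host libraries ran from 12.3 through a median of 44.4 to 94.2 CPM, and control libraries from 17.2 through 39.1 to 55.5 CPM. All rat-host libraries were above all mouse-host libraries, and neither high library stood out, at 29.6 CPM in the mouse-host one and 35.0 CPM in the control one. Col4a2 had 110, 146, 98.3 and 133 CPM in the rat-host libraries and 10.3, 7.53, 2.95 and 1.14 CPM in the graft libraries. Mouse-host libraries held 11.4 to 64.9 CPM of Col4a2 with a median of 31.6 CPM, and control libraries 4.84 to 27.7 CPM with a median of 20.5 CPM. Every graft library was below every mouse-host library in Col4a2, and all rat-host libraries were above them.

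Sparc had 384, 198, 253 and 350 CPM in the rat-host libraries and 115, 53.4, 132 and 142 CPM in the graft libraries. The mouse-host libraries held 25.4 to 328 CPM with a median of 113 CPM, and the control libraries 73.5 to 760 CPM with a median of 106 CPM. The high mouse-host and control libraries held the top values of their arms, and without them the arms reached 258 and 170 CPM. Sparc did not follow the fibrillar collagens elsewhere: graft replicate 1 was below graft replicates 3 and 4, and rat-host replicates 1 and 4, with 0 reads of Col1a2, were above the high mouse-host library.

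Timp3, a matrix-bound inhibitor of metalloproteinases, had 95.7, 88.1, 120 and 105 CPM in the rat-host libraries and 17.2, 48.5, 19.2 and 22.5 CPM in the graft libraries. The mouse-host libraries held 22.2 to 125 CPM with a median of 49.9 CPM and the control libraries 10.8 to 80.4 CPM with a median of 42.2 CPM, so the rat-host and mouse-host values overlapped. Timp2, the inhibitor that also helps to activate the Mmp2 product, had 90.1, 123, 75.3 and 48.1 CPM in the rat-host libraries and 123, 32.4, 115 and 80.4 CPM in the graft libraries. Mouse-host libraries held 24.7 to 190 CPM of Timp2 with a median of 96.9 CPM, and control libraries 26.4 to 127 CPM with a median of 92.0 CPM.

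Of the mixed genes, Ogn (osteoglycin or mimecan, a small proteoglycan) was above 1 CPM in 29 libraries. The rat-host libraries held 0.219, 1.77, 2.72 and 1.01 CPM and the graft libraries 4.54, 0.0724, 10.4 and 22.8 CPM. The mouse-host libraries held 0.0798 to 99.8 CPM with a median of 19.2 CPM, and the control libraries 8.21 to 202 CPM with a median of 20.0 CPM. Its highest values in both arms were those of the high libraries, and the 4 libraries of mouse-host experiment 3 lay between 14.9 and 19.9 CPM. Mfap4, a microfibril-associated glycoprotein gene, was present at 3.79 to 36.5 CPM in the rat-host libraries, and 17 of the 32 libraries reached 1 CPM.

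**Figure D4:**
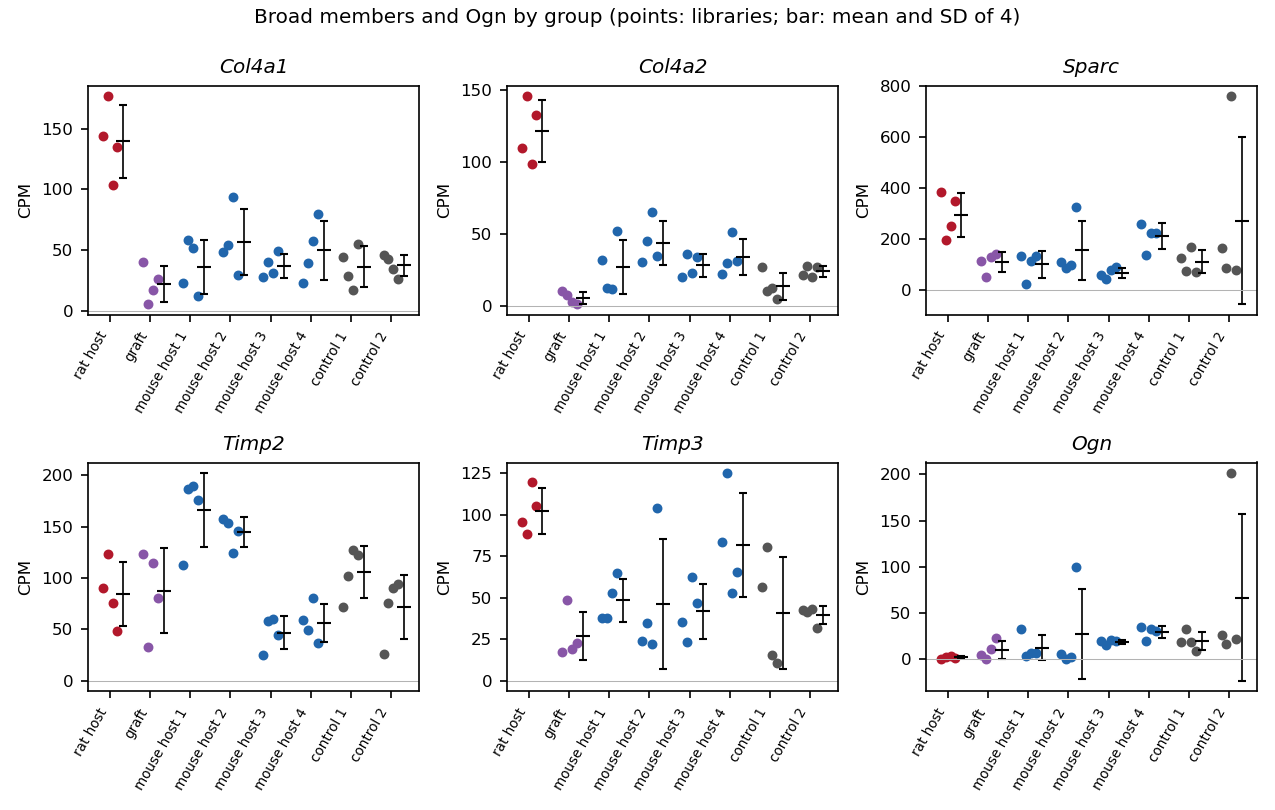
CPM of the 5 broad genes and of Ogn by group, with 1 point per library and a bar for the mean and SD of the 4 libraries of a group. All 4 rat-host points of Col4a1 and Col4a2 lie above every mouse-host point, Timp2 is higher in mouse-host experiments 1 and 2 than in 3 and 4, and 1 control library stands at 760 CPM of Sparc and 202 CPM of Ogn.

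Arms were compared on counts summed per experiment, with edgeR's quasi-likelihood test and Benjamini-Hochberg adjustment over all genes, and a gene was called below an adjusted p of 0.05. With 1 sum each, the rat host and the graft borrow the spread between experiments from the mouse-host and control arms. A concentrated gene can pass the expression filter through a sum that holds a high library, so counts and medians over the genes tested are descriptions of these sums.

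Between the rat-host and mouse-host cells, 0 of 34 genes were called, against 0.643% of all genes tested (0.217% higher and 0.427% lower in rat-host cells). Col4a1 averaged 140 ± 30.1 CPM in rat-host cells (SD, n = 4 libraries) and 45.1 ± 9.98 CPM in mouse-host cells (SD, n = 4 experiments), a log2 fold change of 1.67 (SE 0.28) that just missed the threshold (edgeR adjusted p = 0.0530), and its adjusted p ran from 0.0309 to 0.115 when single libraries or experiments were left out, below the threshold in 6 of 39 such fits. Col4a2 averaged 122 ± 21.4 CPM in rat-host cells and 33.2 ± 7.67 CPM in mouse-host cells, a log2 fold change of 1.91 (SE 0.35, edgeR adjusted p = 0.0696). These were the 2 members in which every rat-host library exceeded every mouse-host library, which 1.65% of all genes did, and no member had every rat-host library lower, against 1.37%. Without the high libraries the log2 fold changes of Col4a1 and Col4a2 were 1.60 and 1.87. Sparc had 1.21 (SE 0.56), Timp3 0.97 (SE 0.36) and Timp2 -0.27 (SE 0.68), each with an edgeR adjusted p of 0.346 or more. Ogn had -3.78 (SE 0.90, edgeR adjusted p = 0.132). Of the 34 genes 8 had positive log2 fold changes and the median was -5.44, or -4.09 over the 32 genes left when 14 were set at a floor of 3 reads in an arm and 2 under the floor in both arms were dropped, against a median of -0.03 over all genes. With the high libraries left out, 16 of 31 were positive and the median turned to 0.34, so the negative median rests on the high mouse-host library. The tables hold mouse transcripts, and how much RNA of rat cells they would count was not tested. Effects of the host species and of the neonatal age cannot be told apart here.

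Between the graft and the mouse-host cells, 0 of 34 genes were called, against 0.115% of all genes tested (0.0191% higher and 0.0956% lower in the graft). Col4a2 averaged 5.47 ± 4.18 CPM in the graft (SD, n = 4 libraries) and 33.2 ± 7.67 CPM in mouse-host cells (SD, n = 4 experiments), with a log2 fold change of -2.55 (SE 0.47, edgeR adjusted p = 0.110). It was the 1 member in which every graft library was below every mouse-host library, which 0.299% of all genes were, and no member was higher in every graft library, against 0.446%. Col4a1 had -1.03 (SE 0.34), Timp3 -0.95 (SE 0.41), Sparc -0.29 (SE 0.61) and Timp2 -0.28 (SE 0.68), so that all 5 broad genes had negative log2 fold changes, each with an edgeR adjusted p of 0.110 or more. Of the 34 genes 13 were positive, with a median of -0.29 against -0.09 over all genes, and without the high libraries 23 of 31 were positive with a median of 2.26. Graft replicates 1 and 4 carried most of the concentrated genes of that arm, as given above.

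Between the mouse-host and control cells, 0 of 34 genes were called, against 0.0% of all genes tested, with 691 genes at an unadjusted p below 0.05 and 162 called by DESeq2. No member had every mouse-host library above or below every control library, against 0.0% and 0.00637% of all genes. The broad genes had log2 fold changes of 0.84 (Col4a2, SE 0.32), 0.41 (Timp3, SE 0.30), 0.31 (Col4a1, SE 0.25), 0.22 (Timp2, SE 0.52) and -0.54 (Sparc, SE 0.46). Sparc levels were 135 ± 62.8 CPM over the mouse-host experiments against 192 ± 114 CPM over the control experiments, and 121 ± 62.8 and 111 ± 0.687 CPM without the high libraries (SD over 4 and 2 experiments), where its log2 fold change turned to 0.14. Of the 34 genes 7 were positive with a median of -1.19 against 0.00 over all genes. With the high libraries left out, 14 of 31 were positive with a median of 0.00. That value includes 7 genes under the floor of reads, as used for the rat host, in both arms. With these 7 dropped and 1 gene set at the floor, the median was -0.11 over 24 genes.

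**Figure D5:**
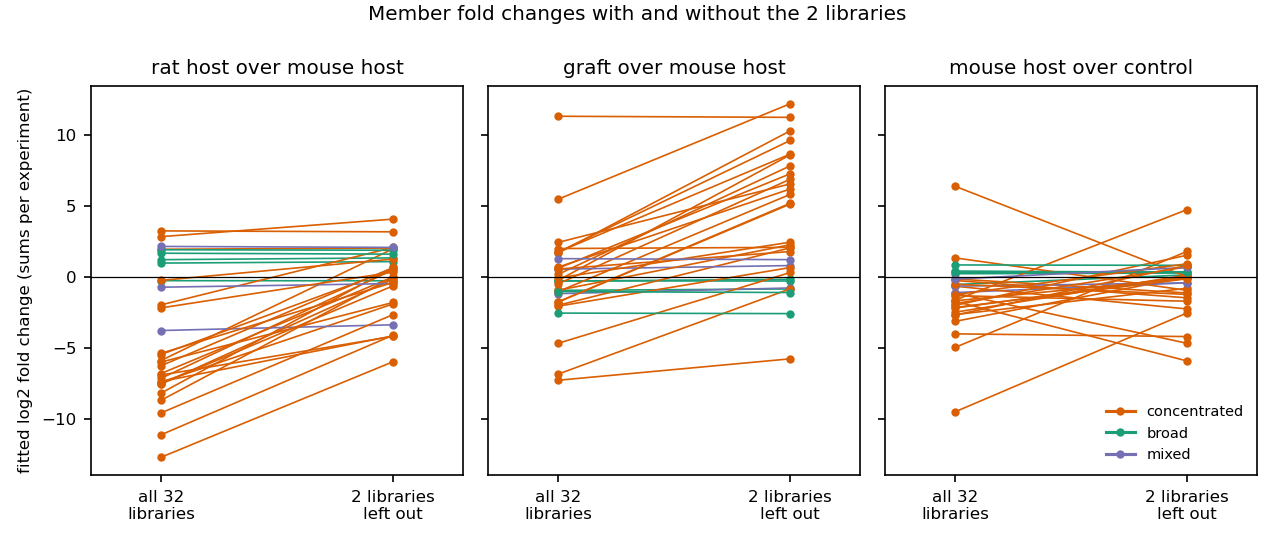
Fitted log2 fold change of each gene in 3 comparisons, with all 32 libraries and with the 2 high libraries left out, joined by a line per gene and coloured by class. Lines of the broad genes are nearly level, except that Sparc crosses 0 for mouse host over control (-0.54 with all libraries, 0.14 without), while the median of the genes tested moves from -5.44 to 0.34 for rat host over mouse host and from -0.29 to 2.26 for graft over mouse host; values of genes with 0 reads in an arm depend on the prior count.

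Within the mouse-host arm, single libraries were compared among the 4 experiments. Timp2 was the 1 member called of 13 tested (edgeR F-test adjusted p = 0.00328), against 1.35% of all genes. It averaged 166 ± 35.97, 145 ± 14.5, 46.8 ± 16.4 and 56.6 ± 18.5 CPM in experiments 1 to 4 (SD, n = 4 libraries each). The lowest library of experiments 1 and 2 had 113 CPM and the highest of experiments 3 and 4 had 80.8 CPM, so these pairs of experiments did not overlap. Experiments 1 to 3 are labelled female and experiment 4 male, and the part of sex in this difference was not tested. Between control experiment 2 and control experiment 1, 0 of 10 members tested were called, against 0.0173% of all genes. Sparc had a log2 fold change of 1.31 there (SE 0.65), with 273 ± 327 CPM in experiment 2 and 111 ± 45.3 CPM in experiment 1 (SD, n = 4 libraries each), and of -0.00054 without the high control library.

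Of 16 genes of collagen biosynthesis and folding, 12 had positive log2 fold changes between rat-host and mouse-host cells, with a median of 0.73, and 1 was called higher, against 46.0% positive and 0.217% called higher over all genes. Colgalt1, which adds galactose to collagen hydroxylysines, rose by 1.61 on the log2 scale (SE 0.27, edgeR adjusted p = 0.0484), to 84.8 to 140 CPM in the rat-host libraries, against 6.41 to 79.0 CPM in the mouse-host libraries. Ppib and P4hb, the foldase genes with the highest mean TPM of the list, had 446 to 557 and 561 to 718 CPM in the rat-host libraries, against 280 to 436 and 181 to 499 CPM in the mouse-host libraries. Serpinh1, the collagen-specific chaperone gene, named after its values were seen, had 45.7 to 55.8 CPM in the rat-host libraries and 2.19 to 29.5 CPM in the mouse-host libraries (log2 fold change 2.43, SE 0.46, edgeR adjusted p = 0.0749). Of 12 basement membrane genes 7 were positive in rat-host over mouse-host cells and 0 were called, with Lamb2 at 215 to 278 against 3.93 to 210 CPM and Col18a1 at 131 to 245 against 87.4 to 281 CPM. In the graft 9 of the 12 were negative relative to mouse-host cells and 0 were called, with Lamb2 at 28.7 to 49.4 CPM and Col18a1 at 41.0 to 100 CPM. Of 7 collagen receptors none was called in either comparison, and Itgb1 and Ddr1 led them. Of 8 other proteases and inhibitors tested, Timp4 fell by 4.96 on the log2 scale in rat-host cells (SE 0.70, edgeR adjusted p = 0.0344), to 0.0707 to 4.67 CPM, against 18.8 to 182 CPM in mouse-host cells. Of the cell type markers, Postn, Pth and Chga fell by 2.51, 1.00 and 0.78 on the log2 scale in rat-host relative to mouse-host cells (edgeR adjusted p = 0.0190, 0.0354 and 0.0226). Between mouse-host and control cells 0 genes of these 4 lists were called.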

How the data were processed

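The 32 libraries were quantified with Salmon against GRCm39, per the submitters' processing notes, with no version stated in the labels. For each Ensembl transcript the authors deposited the expected count (estimated count of reads) from Salmon and its TPM, which Salmon scales by transcript length and library. Expected counts were summed over the transcripts of a gene and rounded to whole numbers, and TPM were summed likewise. Gene names, the assignment of transcripts to genes and the transcript types came from a GENCODE M21 table, which describes GRCm38. Its transcript starts were used to match the Gsn promoter windows to transcripts. Of 116747 transcripts 115685 matched, and the 1062 others held 0.493% of reads.

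CPM were scaled by TMM in edgeR 4.0.16 (R 4.3.3). Counts summed per experiment (8 sums) were tested with edgeR's quasi-likelihood test, with 1 coefficient per arm and 4 residual degrees of freedom, and Benjamini-Hochberg adjustment over all genes tested, at a threshold of 0.05. Single libraries were used within an arm. DESeq2 1.42.0 and limma 3.58.1 (trend, log2(TPM + 1)) were alternatives, with other filters, single libraries, a replicate block, other class limits and left-out libraries. Tables were handled in Python 3.11.15 with pandas 2.3.3 and numpy 2.4.6. The fits were tested on simulated data. No replicate pair agreed within sampling noise: over 48 pairs the lowest chi-square per degree of freedom was 42.3.

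The 36 genes, the lists and the tests were chosen with earlier results of these data known. All 36 are accounted for, and those described in full are, in each role, the 2 concentrated and the 2 broad genes with the highest mean TPM and any gene called. Of the pathway lists, called genes and the 2 with the highest mean TPM are named.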

Additional observations from a re-analysis of the deposited data

Results flagged for a closer look

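In groups of 4 libraries, a library was singled out when its gap to the nearest other library passed Dixon's 95% critical value for its share of the range of the group. Of 64 groups checked, over both summed levels, the 5 broad genes and Ogn, 13 passed. Chance flags about 1 in 20 groups, but these values are not independent: the concentrated genes were classed by their highest libraries, which fixes the outliers of their sum, and the broad sum contains Sparc and Timp3.

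Replicate 4 of mouse-host experiment 2 stood apart in the summed level of the concentrated genes (6811 CPM, next 28.8 CPM), in that of the broad genes (642 CPM, next 406 CPM), in Sparc (328 CPM, next 113 CPM), in Timp3 (104 CPM, next 34.5 CPM) and in Ogn (99.8 CPM, next 5.06 CPM). Replicate 3 of control experiment 2 stood apart in the concentrated sum (5965 CPM, next 73.1 CPM), the broad sum (948 CPM, next 302 CPM), Sparc (760 CPM, next 166 CPM) and Ogn (202 CPM, next 26.2 CPM). These 2 libraries account for 9 of the 13 values.

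The other 4 values came from libraries that did not stand apart in the concentrated sum. Timp3 was high in graft replicate 2, at 48.5 CPM with 22.5 CPM next, and low in control experiment 2 replicate 4, at 31.6 CPM with 41.6 CPM next. Ogn was high in mouse-host experiment 1 replicate 1, at 32.7 CPM with 6.10 CPM next, and low in mouse-host experiment 3 replicate 2, at 14.9 CPM with 19.3 CPM next.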

How the results depend on the processing

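Of 338 values under other settings 255 kept their direction and side of the threshold or moved little, and of 1262 with libraries or experiments left out 1177 did. Genes of the list called between rat-host and mouse-host cells numbered 5 by DESeq2, 2 each without a filter, with a 10 CPM filter, with a replicate block and by limma, 3 with single libraries and 4 with single libraries after leaving out both high libraries (chosen after seeing the data), and in the same order all genes called were 1062, 173, 216, 820, 550, 776 and 821, against 0 and 101. Col4a1 and Col4a2 were called in all 7 of these settings, with log2 fold changes of 1.58 to 2.00 and 1.83 to 2.10. Neither was called with scaling by relative log expression in place of TMM, or with both high libraries left out of the experiment sums. Fits on single libraries, with or without the block, took the 4 rat-host or graft libraries as replicates of the arm. Their p-values cover the spread among those libraries, and not between experiments. Between graft and mouse-host cells 3, 1, 1 and 3 genes of the list were called by DESeq2, single libraries, the replicate block and single libraries without the high ones, against 0, with Col4a2 among them each time (adjusted p = 1.37e-06, 0.00166, 0.00343 and 0.00282). All genes called there were 1266, 477, 420 and 442 in that order, and 53 without a filter, 39 with a 10 CPM filter and 192 by limma, against 18. Between mouse-host and control cells all genes called were 162, 14, 4 and 10 in that order and 1 by limma, against 0. Between control experiments 2 and 1, DESeq2 called 2 genes of the list and 172 of all genes, and the replicate block 0 of all genes. Among mouse-host experiments 10 of 32 genes of the list and 202 of 17671 genes were called without a filter, and 1 and 773 by DESeq2, against 1 and 165. All but Timp2 of these 10 were concentrated genes with most of their mouse-host reads in the high mouse-host library, such as Col3a1 with 11064 of 11125. Lox and Col5a2 in rat host, Eln in graft, and Col6a2 and Fbn1 between control experiments were called by DESeq2 with 0 reads on 1 side.

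The median over genes tested turned positive for rat host over mouse host by limma (1.32), without the high libraries (0.34) and with single libraries without them (0.61), and for graft over mouse host with the replicate block (0.87), without the high libraries (2.26) and with single libraries without them (0.85). For mouse host over control it was 0.14 with single libraries without the high ones, where Sparc was also 0.14 in both such fits. Timp2 turned to 0.41 in rat host over mouse host by limma, and Timp3 to 0.44 in control experiment 2 over 1 with the block. The cause was not tested.

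Leaving out single libraries or experiments gave 0 to 2 genes of the list and 12 to 127 of all genes called for rat host, 0 and 0 to 77 for graft, 0 and 0 for mouse host over control, 0 and 0 to 4 between control experiments, and 1 to 2 and 78 to 202 among mouse-host experiments. Medians ran from -6.01 to 0.34 for rat host, -2.15 to 2.08 for graft, -5.56 to 7.24 for mouse host over control and 0.09 to 1.57 between control experiments. Signs turned for Sparc (-1.04 to 0.27), Timp2 (-0.12 to 0.52) and Ogn (-1.73 to 0.044) in mouse host over control, Timp2 (-0.55 to 0.069) in rat host, Sparc (-0.51 to 0.020) and Timp2 (-0.52 to 0.055) in graft, and Col4a1 (-0.18 to 0.34), Sparc (-0.00054 to 1.61) and Timp3 (-0.33 to 0.55) between control experiments.

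Broad genes were 3 with a limit of 5 times the median, where Col4a2 and Sparc turned mixed, or on TPM, where Col4a1 and Col4a2 did. With detection at 5 CPM, Col4a2 turned mixed and 4 genes stayed broad. Mixed genes were 5 with the limit of 5 times the median, and 6 each at 75%, on TPM or without the high libraries. Without the high libraries 19 genes were still concentrated and 6 were near absent. Same-numbered replicates did not deviate together (112 pairs, correlations -0.12 to 0.0786, 0 over 0.1). No pairing by replicate number was therefore seen in these values, which cannot exclude a shared source.

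Pools of 10 to 20 cells make single libraries depend on few cells. The rat host and the graft each have 1 group of 4 libraries, so their spread between experiments is unknown.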

Other observations

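Graft replicate 1 was the next library after the 2 high ones in the concentrated genes, and some of its other markers differed in level from theirs. It held 15.7 CPM of Tagln, a smooth muscle gene, against 0 reads in the high mouse-host library and 2.28 CPM in the high control library. It held 0 reads of Ddr2, 0.239 CPM of Fbln2 and 0.478 CPM of Tcf21, all of which the high libraries carried. For Fbln2 and Tcf21 these were still the highest values of the other 30 libraries. Its concentrated sum was also lower, at 626 CPM against 6811 and 5965 CPM, so a different mix cannot be told from a smaller amount. Scx, a tendon transcription factor gene, did not follow the collagens, with at least 1 CPM in 30 of the 32 libraries and 11.3 and 11.9 CPM in the high mouse-host and control libraries. Ly6a, a surface gene of many fibroblasts, was highest in graft replicate 2, at 605 CPM, a library where the concentrated genes summed to 1.81 CPM.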
